A study of Homo sapiens with 8 samples.

Results

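The 41 genes described here encode the working parts of the lysosome and of autophagy, and were taken by symbol from a table of 62649 genes counted in 2 human colorectal cancer lines, SW620 and SW480, with and without caffeine. They comprise 5 lysosomal membrane proteins, 12 hydrolases and hydrolase activators, 5 proton pump subunits, 5 Rag GTPases and members of the FLCN complex, 3 MiT transcription factors and 11 autophagy genes. All 41 were found by a unique identifier and all passed the filter on low counts. Poly-A RNA was sequenced in 8 libraries, 2 for each of 4 groups: caffeine-treated SW620, untreated SW620, caffeine-treated SW480 and untreated SW480. SW480 was derived from a primary colon adenocarcinoma and SW620 from a lymph node metastasis of the same patient. Per the labels, both lines carried an mCherry-tagged immunoproteasome subunit (B8-mCherry) in the treated and the control cultures alike. Caffeine exposures named in the labels are for SW620 cultures, from 30 to 500 µM over 72 hours or 125 µM kept up for 28 days, and which of them the sequenced libraries had is not stated, nor the exposure of SW480. The labels call the libraries of a group biological replicates without saying how the cultures were separated, and p-values measure only the spread between these libraries.

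Lysosomes are acidic organelles in which hydrolases such as the cathepsins break down protein, lipid and glycan delivered by endocytosis or by autophagy. The V-ATPase pumps protons into them, and membrane proteins such as LAMP1 and LAMP2 line their inner face. In autophagy, ULK1 starts and BECN1 with UVRAG advances the formation of a double membrane, to which ATG5 and ATG7 attach proteins of the ATG8 family (MAP1LC3B, GABARAPL1 and GABARAPL2), and SQSTM1 carries cargo into it. On the lysosomal surface, dimers of a Rag GTPase of the A or B type with one of the C or D type recruit the growth kinase complex mTORC1 when amino acids are present, and FLCN with FNIP1 sets the nucleotide state of RRAGC and RRAGD. The MiT factors TFEB, TFE3 and MITF, which mTORC1 keeps out of the nucleus, drive many genes of both systems.

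Libraries held 15760259 to 23269315 reads assigned to genes, and the rarest member value was 5 counts. Of the assigned reads, 1.63% fell on mitochondrial genes in SW480 caffeine replicate 2, against 4.38% to 6.16% in the other 7 libraries. Levels are CPM, read counts scaled to a common library total, after TMM scaling for library composition. They are relative to all mRNA of a library, and in bulk RNA fewer cells that express a gene and less of its RNA per cell cannot be told apart. Of the 12 epithelial markers, KRT8 had group means from 2394 to 7030 CPM and KRT18, KRT19, EPCAM, CDX2 and VIL1 were above 40 CPM in every library. KRT20, LGALS4, CEACAM5 and GPA33 were at most 2.68 CPM in any library and CDX1 had no read, and CDH1, the epithelial cadherin, averaged 382 CPM in caffeine-treated and 195 CPM in untreated SW620 and only 0.256 and 0.804 CPM in caffeine-treated and untreated SW480. The 12 epithelial markers summed to 12920 to 14330 CPM in caffeine-treated and 10670 to 10740 CPM in untreated SW620, and to 6563 to 6900 CPM in caffeine-treated and 4624 to 6015 CPM in untreated SW480. Of the 8 leukocyte markers, MS4A1 had no read in any library and the sum was at most 5.99 CPM. Of the 8 fibroblast markers COL3A1 had no read, and the sum reached 45.8 to 48.6 CPM in caffeine-treated and 37.8 to 40.1 CPM in untreated SW620 and at most 7.58 CPM in SW480. In SW620 most of it was LUM (means 30.7 CPM with and 31.8 CPM without caffeine) and COL1A1 (14.9 and 6.04 CPM). COL1A2, DCN, THY1 and FAP had at most 2 counts in any SW620 library. The 6 endothelial markers summed to 15.5 to 16.1 CPM in caffeine-treated and 9.72 to 9.82 CPM in untreated SW620 and at most 2.34 CPM in SW480. In SW620 most of that was PECAM1 (means 10.1 CPM with and 6.32 CPM without caffeine) and VWF (5.14 and 2.97 CPM). The part of these marker levels in the results was not tested.

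The first comparison set untreated SW620 against untreated SW480 and asked how the lysosomal and autophagy programme differed between the metastatic and the primary line. Most members were lower in SW620, with the cathepsins CTSL and CTSZ, the Rag GTPase RRAGD and the ATG8 protein GABARAPL1 farthest apart, and GAA, which degrades lysosomal glycogen, and ULK1 were higher. edgeR's quasi-likelihood test over all 17671 tested genes (adjusted p under 0.05, the rule for every call below) called 33 of the 41 members, 10 higher and 23 lower in SW620. Over all tested genes 65.6% were called, 33% higher and 32.6% lower. The median log2 fold change of the members was -0.476, against 0.0316 for all tested genes. Of the called members 13 differed by a log2 value above 1 in size, 2 of them higher and 11 lower in SW620.

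Among the hydrolases, 3 were higher and 7 lower in SW620 of 12. CTSZ, a lysosomal carboxypeptidase encoded on chromosome 20 from 58995185 to 59007247 (GRCh38, GENCODE 29), measured 148 and 139 CPM in the SW620 control libraries and 3020 and 3220 CPM in the SW480 control libraries. In SW480 it was the most abundant member per kilobase of exon, at a mean of 1531 CPM per kb, and in SW620 it ranked 3 at 70.5 CPM per kb, behind PSAP, the precursor of the saposins, at 170.1 and CD63, a tetraspanin, at 169.9 CPM per kb. Its log2 fold change was -4.44 ± 0.15 (SE, edgeR adjusted p = 1.32e-13). The endopeptidase CTSL had 20 and 14 counts (1.01 and 0.702 CPM) in the SW620 controls, against 744 and 897 counts (45.0 and 52.4 CPM) in the SW480 controls, a log2 fold change of -5.82 ± 0.20 (edgeR adjusted p = 2.70e-13). No library of either line came near the other for these cathepsins, though how many of all tested genes were separated in this way was not counted.

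CTSA, which protects NEU1 and beta-galactosidase, measured 53.5 and 56.4 CPM in untreated SW620 and 206 and 217 CPM in untreated SW480 (log2 fold change -1.95 ± 0.12, edgeR adjusted p = 3.58e-10). The aspartic protease CTSD measured 45.7 and 52.1 CPM in untreated SW620, against 137 and 182 CPM in untreated SW480 (-1.71 ± 0.15, 3.20e-08). GAA went the other way, with 304 and 279 CPM in untreated SW620 and 85.7 and 91.7 CPM in untreated SW480 (1.72 ± 0.13, 5.03e-09). HEXA, a subunit of beta-hexosaminidase (0.52), and PSAP (0.41) were also called higher in SW620, CTSB (-0.86), the sialidase NEU1 (-0.80) and the peptidase TPP1 (-0.48) lower, and GLA and GUSB were not called. Annotated exons of CTSD share 1304 bases with another gene on the same strand and those of CTSA 1038 bases with NEURL2 on the other, and how reads there were assigned was not tested.

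The 41 members together summed to 3931 and 3963 CPM in untreated SW620 and to 7531 and 7981 CPM in untreated SW480. Without CTSZ the sums were 3783 and 3824 CPM in untreated SW620, against 4511 and 4761 CPM in untreated SW480, so that 1 cathepsin made up most of the gap. Among the membrane proteins LAMP1 (-0.47), LAMP2 (-0.59) and MCOLN1 (-0.53) were lower in SW620, SCARB2, the receptor that carries glucocerebrosidase to lysosomes, was higher (0.48), and CD63 was not called (-0.20). Of the proton pump subunits ATP6V0D1 was higher (0.74) and ATP6V1B2 lower (-0.87) in SW620, and ATP6V0A1, ATP6V1A and ATP6V1H, between -0.19 and -0.02, were not called.

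The MiT factors were all lower in SW620. MITF had 0.607 and 0.501 CPM in untreated SW620 and 5.08 CPM in each untreated SW480 library (log2 fold change -3.18 ± 0.34, SE, edgeR adjusted p = 3.46e-07). TFEB had 6.98 and 6.26 CPM in untreated SW620, against 17.7 and 19.3 CPM in untreated SW480 (-1.48 ± 0.18, 1.48e-06). TFE3, encoded on chromosome X from 49028726 to 49043486, had 59.7 and 58.8 CPM in untreated SW620 and 123 and 115 CPM in untreated SW480 (-1.01 ± 0.12, 1.31e-06). TFE3 was the predominant MiT transcript in every library, with 91.3% to 94.8% of the summed CPM per kb of the 3 factors in the 4 SW620 libraries and 86.7% to 88.2% in the 4 SW480 libraries.

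RRAGD, a Rag GTPase of the C and D type whose gene lies on chromosome 6 from 89364636 to 89412270, measured 13.2 and 11.98 CPM in untreated SW620 and 74.4 and 71.2 CPM in untreated SW480 (log2 fold change -2.53 ± 0.14, SE, edgeR adjusted p = 4.75e-11). Its relative RRAGC was also lower, at 10.9 and 11.8 CPM in untreated SW620 and 20.5 and 24.5 CPM in untreated SW480, but by less (-0.98). Per kilobase of exon, RRAGD was therefore 55.2% and 50.8% of the RRAGC and RRAGD sum in the untreated SW620 libraries, and 78.7% and 74.7% in the untreated SW480 libraries. FLCN, the GTPase activator for that type, stood at 24.2 and 27.6 CPM in untreated SW620 and 62.5 and 65.4 CPM in untreated SW480 (-1.30 ± 0.14, 2.76e-07), and FNIP1 was lower with it (-0.99). The exons of RRAGC share 1183 bases, those of FLCN 1161 bases and those of FNIP1 281 bases with another gene on the same strand. RRAGA, of the other Rag type, was called higher in SW620 (0.35).

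The autophagy genes split, with 4 higher and 5 lower in SW620 of 11. GABARAPL1, on chromosome 12 from 10212458 to 10223130, had 15.9 and 17.2 CPM in untreated SW620 and 92.4 and 76.5 CPM in untreated SW480 (log2 fold change -2.35 ± 0.15, SE, edgeR adjusted p = 3.26e-10). GABARAPL2 ran opposite, with 95.6 and 103 CPM in untreated SW620 against 46.2 and 53.8 CPM in untreated SW480 (0.99). Within the 3 ATG8 members, GABARAPL1 made up 6.72% and 6.80% of the CPM per kb in untreated SW620 and 34.6% and 27.5% in untreated SW480, and GABARAPL2 54.5% and 54.7% in untreated SW620 and 23.3% and 26.1% in untreated SW480. The share of MAP1LC3B was 38.8% and 38.5% in untreated SW620 and 42.1% and 46.4% in untreated SW480. Near-identical copies exist for GABARAPL1 (GABARAPL3) and MAP1LC3B (MAP1LC3B2), so counts of this family are uncertain to the extent that reads could not be placed. ATG9A, the membrane scramblase of the pathway, was lower in SW620 (16.2 and 14.1 CPM in untreated SW620, 47.3 and 37.8 CPM in untreated SW480, -1.49 ± 0.17, 6.15e-07), and its exons share 1833 bases with another gene on the same strand. ULK1 (1.10), BECN1 (0.37) and the lipid-binding WIPI1 (0.49) were higher in SW620, SQSTM1 (-0.70), MAP1LC3B (-0.35) and UVRAG (-0.48) were lower, and ATG5 and ATG7 were not called.

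Of the 33 called members 25 kept their call under every alternative and none changed sign. Leaving out SW480 control replicate 1 ended the calls of PSAP, TPP1 and RRAGA (edgeR adjusted p from 0.0542 to 0.177), and SW480 control replicate 2 those of SCARB2 (log2 fold change then 0.313), MCOLN1, MAP1LC3B and BECN1 (0.0512 to 0.114). Leaving out SW620 control replicate 1 ended those of PSAP, TPP1, RRAGA, MAP1LC3B, BECN1 and UVRAG (edgeR adjusted p from 0.056 to 0.141), and SW620 control replicate 2 those of SCARB2, MCOLN1, PSAP, TPP1, RRAGA, MAP1LC3B and BECN1 (0.0523 to 0.144).

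**Figure D1:**
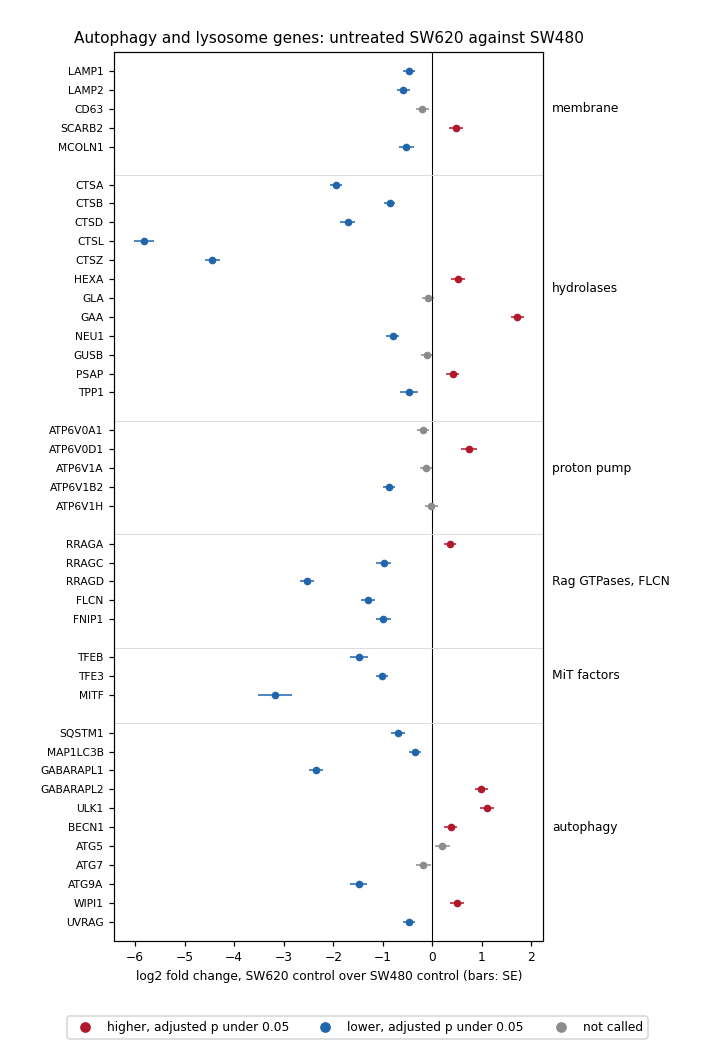
Log2 fold change of the 41 members in untreated SW620 over untreated SW480 (2 libraries each), by functional group from top to bottom, with bars for the SE and colour for the edgeR call. CTSL (-5.82) and CTSZ (-4.44) lie farthest to the left, GAA (1.72) farthest to the right, and all 3 MiT factors are lower in SW620.

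**Figure D2:**
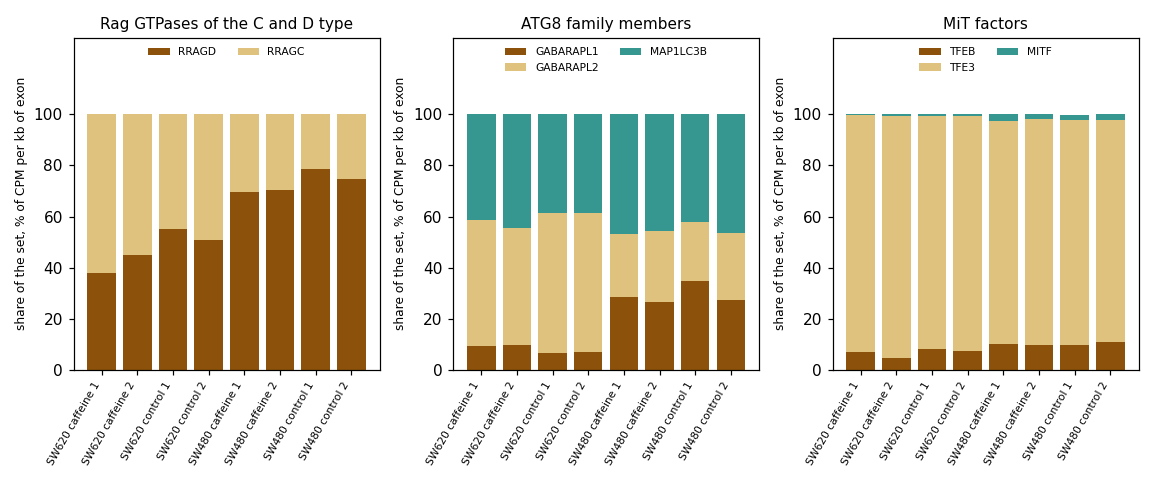
Share of each gene in the summed CPM per kb of exon of related members, in each of the 8 libraries, for RRAGD with RRAGC, for 3 ATG8 family members and for the MiT factors. RRAGD holds 37.8% to 55.2% of its pair in SW620 and 69.7% to 78.7% in SW480, and TFE3 is the predominant MiT transcript in every library.

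Of 148 other genes on lists for the same functional groups, 140 were tested and 68.6% called, near the 65.6% of all tested genes. Of these other genes 32 were higher and 64 lower in untreated SW620. The 6 with the smallest adjusted p included 2 inhibitors of mTORC1 signalling that were higher in SW620, DDIT4 at 717 and 708 CPM in untreated SW620 against 50.2 and 57.7 CPM in untreated SW480 (log2 fold change 3.72), and SESN2 at 71.2 and 67.6 CPM in untreated SW620 against 10.7 and 9.86 CPM in untreated SW480 (2.76). The other 4 were lower in SW620: the fucosidase FUCA1 (-3.09), the proton pump subunit ATP6V0E2 (-3.60), the cathepsin CTSH (-3.10) and the sterol carrier NPC2 (-2.25).

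The second comparison set caffeine-treated against untreated SW620 cells. RRAGD, CTSA and LAMP1 fell and GABARAPL1 and TFE3 rose, each by a log2 value under 1. edgeR called 5 of the 41 members, 2 higher and 3 lower (12.2%), while over all tested genes 14.4% were called, 8.1% higher and 6.25% lower. The share of members called was thus near that of all genes. The median log2 fold change was -0.0141 over the members and -0.0109 over all tested genes.

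RRAGD measured 7.32 and 7.95 CPM in caffeine-treated SW620 and 13.2 and 11.98 CPM in untreated SW620 (log2 fold change -0.72 ± 0.15, SE, edgeR adjusted p = 0.00365). The groups did not overlap, though how many of all tested genes lacked overlap was not counted, here or below. RRAGD made up 37.8% and 44.8% of the RRAGC and RRAGD sum per kb in caffeine-treated SW620, against 55.2% and 50.8% in untreated SW620. RRAGC itself had 12.3 and 9.97 CPM in caffeine-treated and 10.9 and 11.8 CPM in untreated SW620, with overlapping groups (-0.04). FLCN (-0.12), FNIP1 (0.31) and RRAGA (0.20) were not called.

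GABARAPL1 measured 27.3 and 25.3 CPM in caffeine-treated SW620, against 15.9 and 17.2 CPM in untreated SW620 (log2 fold change 0.67 ± 0.15, SE, edgeR adjusted p = 0.00576). Although it rose, it stayed below the level of any SW480 library (61.1 to 92.4 CPM). TFE3 measured 78.7 and 82.8 CPM in caffeine-treated and 59.7 and 58.8 CPM in untreated SW620 (0.45 ± 0.12, 0.0190). TFEB had 7.62 and 5.29 CPM in caffeine-treated and 6.98 and 6.26 CPM in untreated SW620, with a log2 fold change of -0.05 ± 0.19 (adjusted p = 0.914, 95% interval from -0.453 to 0.358). MITF rested on 5 and 17 counts with caffeine and 12 and 10 counts without (0.11 ± 0.48, edgeR adjusted p = 0.926), and the signs of TFEB and MITF turned when single SW620 libraries were left out. Of the other autophagy members, SQSTM1 had 213 and 218 CPM in caffeine-treated and 156 and 163 CPM in untreated SW620, with no overlap, and missed the threshold (0.43, edgeR adjusted p = 0.0514). The 11 autophagy members summed to 799.5 and 787 CPM in the caffeine-treated and 662 and 688 CPM in the untreated SW620 libraries. Most of that gap came from SQSTM1 and MAP1LC3B (means 155 and 123 CPM), neither of them called. Of the 11, 9 had a positive log2 fold change, as had 8479 of 17671 tested genes, but the signs of ATG5, ATG7 and ATG9A turned under some alternative. Only GABARAPL1 was called (9.09% of the 11, against 14.4% of all tested genes).

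CTSA measured 41.7 and 41.9 CPM in caffeine-treated SW620 and 53.5 and 56.4 CPM in untreated SW620 (log2 fold change -0.40 ± 0.12, SE, edgeR adjusted p = 0.0379). LAMP1 measured 133 and 143 CPM in caffeine-treated and 183 and 176 CPM in untreated SW620 (-0.38 ± 0.12, 0.0413). GAA, at 215 and 231 CPM in caffeine-treated and 304 and 279 CPM in untreated SW620, stood at the threshold without passing it (-0.39, adjusted p = 0.05). These groups did not overlap, and with 2 libraries each this carries no test. Of the 12 hydrolases 9 had negative values, from -1.05 for CTSL, on 7 and 8 counts in caffeine-treated and 20 and 14 counts in untreated SW620 (adjusted p = 0.0873), up to 0.35 for NEU1 (edgeR adjusted p = 0.0929). The proton pump subunits lay between -0.47 for ATP6V0D1 (edgeR adjusted p = 0.0589) and 0.30 for ATP6V1B2, without a call.

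LAMP1, CTSA and GAA share a promoter sequence. It is known from lysosomal genes, so its frequency among members chosen as such genes is not independent of that choice. TFEB and TFE3 are known to bind a palindromic E-box in promoters of lysosomal genes, and 31 of the 41 members had a RefSeq promoter window (GRCh38.p14, 250 bases before to 50 after a transcript start); LAMP2, CTSB, HEXA, PSAP, ATP6V1A, ATP6V1B2, ATP6V1H, RRAGA, RRAGD and UVRAG had none. The palindrome TCACGTGA, which reads the same on both strands and contains the shorter E-box CACGTG, was in the windows of 5 of these 31 members (16.1%), against 246 of the 12073 tested genes with a window (2.04%) and 321 of all 27305 genes with one (1.18%). CACGTG was in 10 of the 31 (32.3%), in 12.1% of the tested genes and in 8.77% of all. The 5 palindromes are shown with flanking bases, 5′ to 3′ on the gene's strand and with the palindrome in capitals, because LAMP1 and CTSA, which fell in SW620, are among their genes. They lie at chr13:113297199-113297228 for LAMP1, chr20:45891298-45891327 for CTSA, chr17:80101493-80101522 for GAA and chr19:7522571-7522600 for MCOLN1, all on the plus strand, and at chr16:67481199-67481228 on the minus strand for ATP6V0D1.
LAMP1: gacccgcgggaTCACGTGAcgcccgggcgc
CTSA: ggcgccggagtTCACGTGActcgtacacat
GAA: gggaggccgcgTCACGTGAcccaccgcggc
MCOLN1: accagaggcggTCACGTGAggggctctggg
ATP6V0D1: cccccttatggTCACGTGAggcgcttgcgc

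With caffeine in SW620 all 5 of these genes had negative log2 fold changes, LAMP1 -0.38, CTSA -0.40, GAA -0.39, the calcium channel MCOLN1 -0.26 and the proton pump subunit ATP6V0D1 -0.47, of which LAMP1 and CTSA were called. Of the 26 members with a window and no palindrome 11 were negative, and 2 were called, both higher. The members with CACGTG but not the palindrome went both ways without a call. CTSD (-0.135) and RRAGC (-0.04) were negative, and CD63 (0.02), NEU1 (0.35) and FNIP1 (0.31) positive. CTSZ (-0.37), SCARB2 (-0.35) and GUSB (-0.29), which have a window without the palindrome, lay in the same range as the 5 genes that hold it. This grouping was made with the values in view and carries no test. Of the 246 tested genes that hold the palindrome 6.5% were called lower and 7.32% higher in SW620, with a median of -0.0251, against 6.2% lower and 9.04% higher and a median of 0 among the 12073 tested genes with a window. In SW480, 4 of these 5 members and 19 of the 26 without the palindrome were negative, and none of either was called.

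The calls in SW620 depended on single libraries. Leaving out SW620 control replicate 1 ended the call of RRAGD (adjusted p = 0.0746), leaving out SW620 control replicate 1 or 2 that of GABARAPL1 (0.1 and 0.0505), and leaving out any 1 of the 4 SW620 libraries those of TFE3, CTSA and LAMP1, namely SW620 caffeine replicates 1 and 2 and SW620 control replicates 1 and 2 (edgeR adjusted p from 0.0659 to 0.189 for TFE3, 0.154 to 0.289 for CTSA and 0.123 to 0.277 for LAMP1). Leaving out SW620 caffeine replicate 1 or 2 left 2 members called, and leaving out SW620 control replicate 1 or 2 left 0 and 1. With SW480 caffeine replicate 1 or 2 left out 8 members were called, with SW480 control replicate 1 or 2 left out 12 and 11, and 15 (7 higher and 8 lower) when SW620 was fitted alone.

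**Figure D3:**
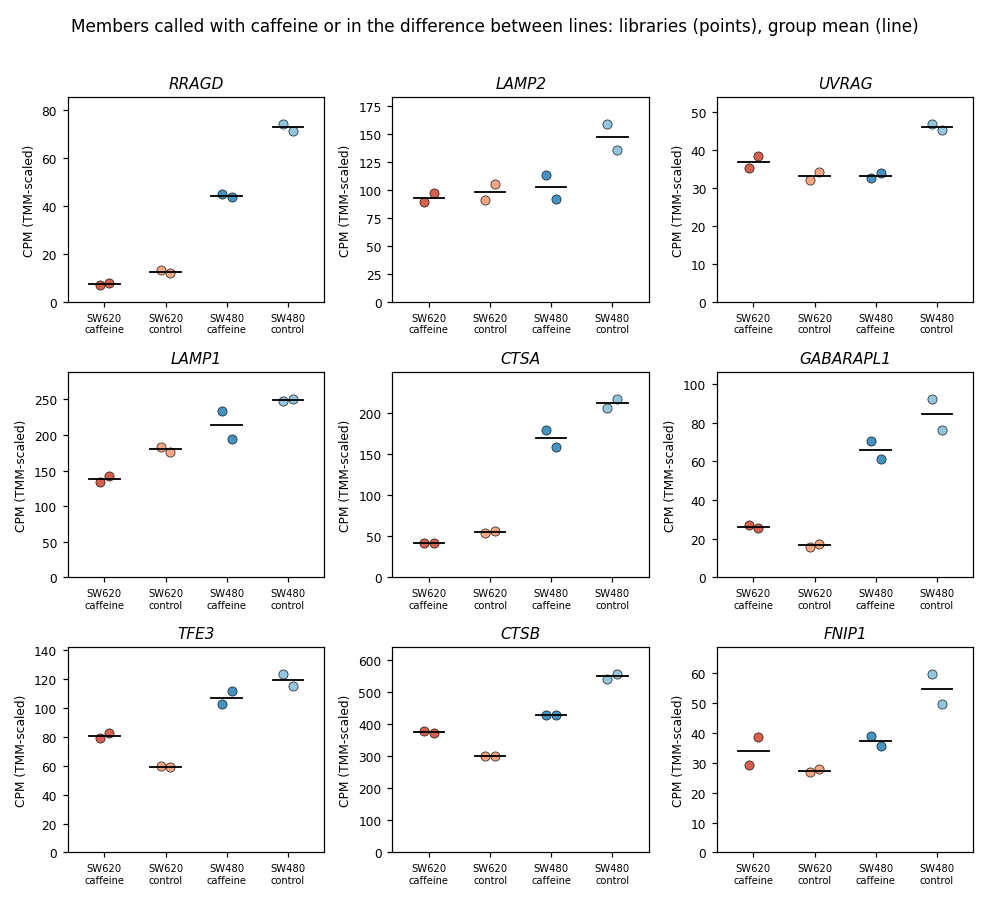
TMM-scaled CPM of 9 members in each of the 8 libraries (points, 2 per group) with the group mean (line), for the members called with caffeine in a line or in the difference between the lines. RRAGD is lower with caffeine in both lines (7.32 and 7.95 against 13.2 and 11.98 CPM in SW620, 45.0 and 43.6 against 74.4 and 71.2 CPM in SW480), and GABARAPL1 and TFE3 are higher with caffeine in SW620. The changes of GABARAPL1 and TFE3 in SW480, and of CTSB in either line, were not called.

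Among the 140 tested genes of the same systems that are no members, 13 rose and 11 fell with caffeine in SW620. That was 17.1% called, against 14.4% of all tested genes (8.1% higher and 6.25% lower). Of the 42 tested autophagy genes among the 140, 10 rose and 2 fell (28.6% called), and of the 35 hydrolases 1 rose and 4 fell (14.3% called). Of 17 lysosomal membrane genes 1 rose and 2 fell (17.6%), and of 15 proton pump genes 1 rose and 2 fell (20%). Of 31 genes of the Rag GTPase and FLCN complex list 0 rose and 1 fell (3.23%). The lists were chosen with earlier results of these data known, so these shares carry no test. BNIP3L, a receptor that directs mitochondria to autophagy, measured 143 and 131 CPM in caffeine-treated SW620 and 39.3 and 34.4 CPM in untreated SW620 (log2 fold change 1.89 ± 0.14, SE, edgeR adjusted p = 2.79e-07). VMP1, a lipid scramblase of the endoplasmic reticulum needed for autophagosome formation, measured 288 and 253 CPM in caffeine-treated and 136 and 147 CPM in untreated SW620 (0.93 ± 0.12, 8.12e-05). Its partner TMEM41B (0.63), the cargo receptor TAX1BP1 (0.71), PLEKHM1, which links autophagosomes to lysosomal fusion (0.79), and the lysosomal cholesterol exporter NPC1 (0.88) rose too. TMEM41B lost its call without SW620 control replicate 1 or 2 (edgeR adjusted p = 0.0513 and 0.0536), and the other 5 kept theirs whichever library was left out. With SW620 caffeine replicate 1 or 2 left out 7 and 8 genes of the autophagy list were called and 10 and 11 of the 140, and with SW620 control replicate 1 or 2 left out 6 and 4 of the list and 8 and 6 of the 140. With SW620 fitted alone these were 19 and 42.

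The third comparison set caffeine-treated against untreated SW480 cells. RRAGD, LAMP2 and UVRAG fell and no member was called higher by edgeR, DESeq2 or limma-voom. At an unadjusted p under 0.05 in edgeR, 13 members were lower and 2 (ATG7 and ULK1) higher. How many of all tested genes pass that unadjusted threshold was not counted, here or below. edgeR called 3 of 41 members, all lower (7.32%), and over all tested genes 3.6% were called, 1.67% higher and 1.93% lower. Of the members 32 had a negative and 9 a positive log2 fold change, with a median of -0.143, against a median of 0 over all tested genes.

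RRAGD measured 45.0 and 43.6 CPM in caffeine-treated SW480 and 74.4 and 71.2 CPM in untreated SW480 (log2 fold change -0.72 ± 0.125, SE, edgeR adjusted p = 0.00629). Its share of the RRAGC and RRAGD sum was 69.7% and 70.6% in caffeine-treated and 78.7% and 74.7% in untreated SW480, again without overlap. RRAGD was the only 1 of the 41 members called in both lines. FNIP1 had 38.9 and 35.7 CPM in caffeine-treated and 59.7 and 49.5 CPM in untreated SW480 and just missed the threshold (-0.55, edgeR adjusted p = 0.0503).

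LAMP2, the membrane protein that serves as receptor in chaperone-mediated autophagy, measured 113 and 91.9 CPM in caffeine-treated and 159 and 136 CPM in untreated SW480 (log2 fold change -0.53 ± 0.14, SE, edgeR adjusted p = 0.0425). All 5 membrane proteins had negative values, CD63 (-0.42, adjusted p = 0.0810), SCARB2 (-0.40), LAMP1 (-0.22) and MCOLN1 (-0.01) without a call, and the sign of MCOLN1 turned under 2 alternatives. UVRAG, a subunit of the BECN1 complex, measured 32.7 and 33.9 CPM in caffeine-treated and 47.0 and 45.4 CPM in untreated SW480 (-0.47 ± 0.13, edgeR adjusted p = 0.0490). The groups of LAMP2 and of UVRAG did not overlap.

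None of the MiT factors was called in SW480. TFE3 measured 102 and 112 CPM in caffeine-treated and 123 and 115 CPM in untreated SW480 (log2 fold change -0.16 ± 0.12, SE, edgeR adjusted p = 0.503). TFEB measured 15.3 and 16.4 CPM in caffeine-treated and 17.7 and 19.3 CPM in untreated SW480 (-0.22 ± 0.17, edgeR adjusted p = 0.506), and MITF 5.08 and 4.22 CPM in caffeine-treated and 5.08 CPM in both untreated SW480 libraries (-0.14 ± 0.25, edgeR adjusted p = 0.811). The 12 hydrolases ranged from -0.48 to 0.14 and the 5 proton pump subunits from -0.26 to 0.02 in log2 fold change, none with an edgeR call, and 4 hydrolases and 0 pump subunits were lower at an unadjusted p under 0.05.

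Of the SW480 calls, RRAGD lost its own without SW480 caffeine replicate 2, the library with 1.63% mitochondrial reads (adjusted p = 0.0845), although its log2 fold change stayed at -0.69. For LAMP2 the adjusted p was 0.377 with that library left out, 0.202 with SW480 control replicate 1 left out, and 0.0544 to 0.0741 with any 1 of SW620 caffeine replicates 1 and 2 and SW620 control replicates 1 and 2 left out. For UVRAG it was 0.0815 and 0.213 with SW480 caffeine replicate 1 or 2 left out, 0.156 with SW480 control replicate 1 left out, and 0.0642 to 0.112 with any 1 of the same 4 SW620 libraries left out (edgeR throughout). Leaving out SW480 caffeine replicate 2 left 0 members called, SW480 control replicate 2 gave 6, and SW620 control replicate 1 or 2 gave 1, all of them lower. Without mitochondrial genes in the fit, which kept SW480 caffeine replicate 2, 4 members were called. The part of the low mitochondrial share in these calls was not tested.

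Of the other lysosome and autophagy genes, 4 rose and 4 fell in SW480 (5.71% of 140, against 3.6% of all tested genes). By list, 0 of 42 autophagy genes, 1 of 35 hydrolases and 2 of 17 lysosomal membrane genes were called. So were 1 of 15 proton pump genes and 4 of 31 genes of the Rag GTPase and FLCN complex list. DDIT4 measured 100.1 and 100.9 CPM in caffeine-treated and 50.2 and 57.7 CPM in untreated SW480 (log2 fold change 0.90), and SESN2 20.98 and 20.4 CPM in caffeine-treated and 10.7 and 9.86 CPM in untreated SW480 (1.01), and both kept their calls whichever library was left out. ITFG2, a subunit of the KICSTOR complex that acts on mTORC1 (0.70), and the lysosomal ion channel TPCN2 (0.81) rose, and SESN3 (-0.67) and the proton pump subunit ATP6V0A4 (-0.87) fell. Without SW480 caffeine replicate 2 these 4 lost their calls (edgeR adjusted p = 0.165 to 0.398), and the log2 fold change of TPCN2 was 0.454. Leaving out SW480 control replicate 1 ended the calls of SESN3 and TPCN2 (0.144 and 0.0993), and SW480 control replicate 2 that of TPCN2 (0.0512). The number of these genes called was 18 and 2 with SW480 caffeine replicate 1 or 2 left out, and 5 and 17 with SW480 control replicate 1 or 2 left out.

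**Figure D4:**
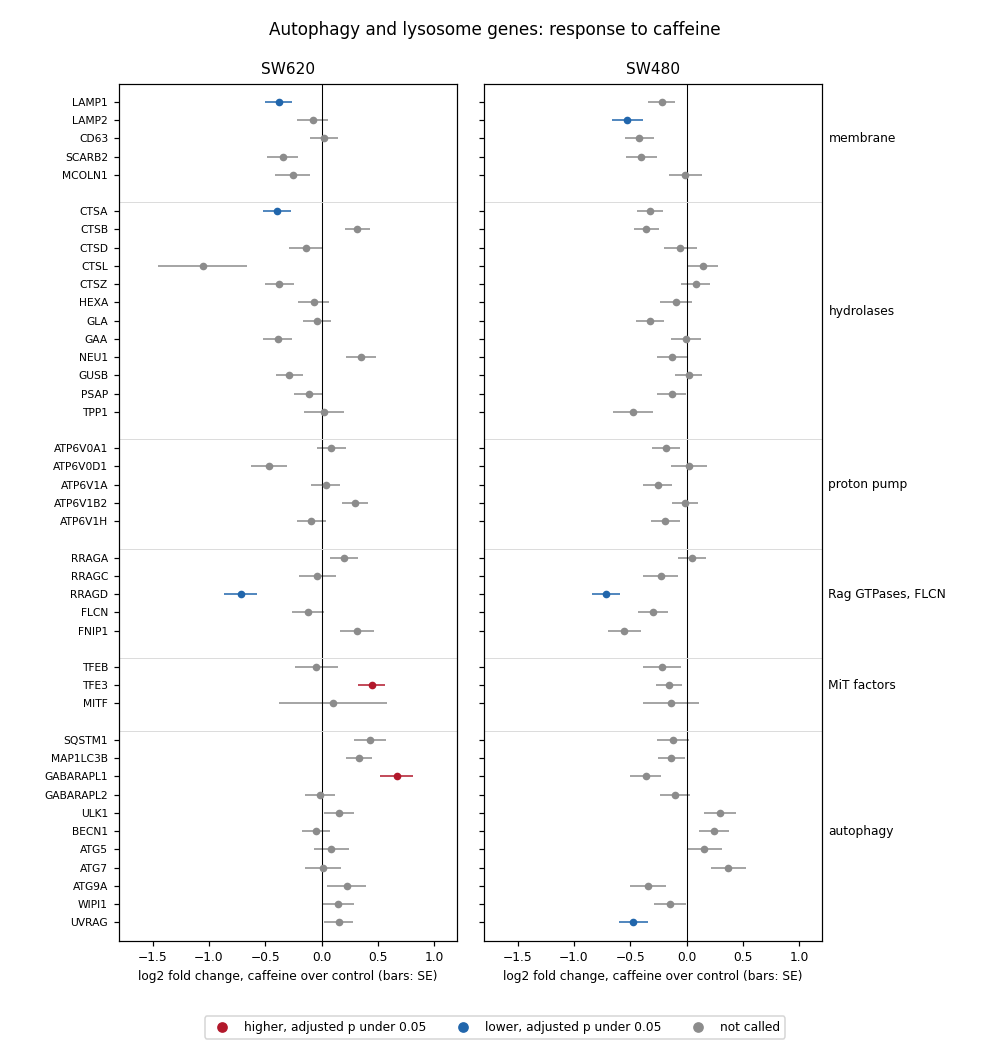
Log2 fold change of the 41 members with caffeine over control in SW620 (left) and SW480 (right), 2 libraries per group, with bars for the SE and colour for the edgeR call. RRAGD (-0.72 in both panels) is the only member called in both, and the lysosomal membrane proteins lie at or below 0.02 in both lines.

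Whether the caffeine response itself differed between the lines was tested as the difference of the log2 fold changes (SW620 minus SW480). GABARAPL1, CTSB, FNIP1, TFE3 and UVRAG responded more positively in SW620. These were 5 of 41 members (12.2%), all in that direction, against 6.71% of all tested genes, 4.24% in that direction and 2.47% in the other. At an unadjusted p under 0.05 in edgeR, 11 members were more positive and 4 more negative in SW620. The share of all tested genes at that unadjusted threshold was not counted, so these numbers have nothing to be set against. By sign alone, 16 members were lower with caffeine in both lines, 4 higher in both, 16 higher in SW620 and lower in SW480, and 5 lower in SW620 and higher in SW480.

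The response of GABARAPL1 differed by a log2 value of 1.03 ± 0.20 (SE, edgeR adjusted p = 0.00534): it was higher with caffeine in both SW620 libraries, and in SW480 it had 70.3 and 61.1 CPM in caffeine-treated against 92.4 and 76.5 CPM in untreated cells. CTSB, a cysteine cathepsin, measured 380.0 and 374 CPM in caffeine-treated and 302 and 303 CPM in untreated SW620, and 431 and 428 CPM in caffeine-treated and 543 and 558 CPM in untreated SW480. Neither line's change of CTSB was called alone (adjusted p = 0.0664 in SW620 and 0.0871 in SW480), while the difference was (0.68 ± 0.16, edgeR adjusted p = 0.0159).

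FNIP1 measured 29.4 and 38.6 CPM in caffeine-treated and 27.0 and 27.8 CPM in untreated SW620, opposite in direction to its SW480 values (difference 0.86 ± 0.21, edgeR adjusted p = 0.0213). The difference was 0.60 ± 0.17 for TFE3 (edgeR adjusted p = 0.0402). UVRAG, which fell in SW480, had 35.4 and 38.4 CPM in caffeine-treated and 32.2 and 34.2 CPM in untreated SW620 (difference 0.62 ± 0.18, edgeR adjusted p = 0.0457). For RRAGD the difference was -0.0031 ± 0.17, with a 95% interval from -0.364 to 0.358.

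GABARAPL1 kept its call in the difference whichever library was left out. The call of CTSB ended with SW620 caffeine replicate 1 or 2 left out (adjusted p = 0.0608 and 0.0619), and with either SW620 control, replicate 1 (0.124) or replicate 2 (0.12). That of FNIP1 ended with SW480 caffeine replicate 2 left out (0.0888), SW480 control replicate 1 (0.052), SW620 caffeine replicate 2 (0.131), and also with either SW620 control, replicate 1 (0.11) or replicate 2 (0.0923). Of the 8 libraries, SW480 control replicate 2 alone could be left out without ending the calls of TFE3 and UVRAG, and each of the other 7 gave edgeR adjusted p from 0.0508 to 0.2 for TFE3 and from 0.0632 to 0.234 for UVRAG. Members called numbered 3 when SW480 caffeine replicate 2 or SW480 control replicate 1 was left out, 8 for SW480 control replicate 2, 2 for SW620 caffeine replicate 1, and 1 for SW620 caffeine replicate 2 or either SW620 control.

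The response of 14 of the 140 other lysosome and autophagy genes differed between the lines, 9 more positive and 5 more negative in SW620. That was 10% called, against 6.71% of all tested genes. Of the 42 autophagy genes among the 140, 7 were more positive (16.7%) and none more negative, against 4.24% and 2.47% of all tested genes. Of 31 genes of the Rag GTPase and FLCN complex list 0 were more positive and 3 more negative. The lysosomal membrane list (17 genes) and the proton pump list (15 genes) each had 1 in either direction, and 0 of 35 hydrolases were called. The lists were chosen with earlier results of these data known, so these shares carry no test. BNIP3L (difference 1.94 ± 0.20, SE, edgeR adjusted p = 2.27e-05), VMP1 (1.36), the selective autophagy receptor OPTN (1.05) and ATP6V0A4 (1.23) were more positive in SW620, and SESN2 (-1.23) and ATP6V0E2 (-1.44) more negative. VMP1 measured 149 and 128 CPM in caffeine-treated and 185 and 189.5 CPM in untreated SW480, and OPTN 86.3 and 70.3 CPM in caffeine-treated and 106 and 108 CPM in untreated SW480. OPTN in SW620 stood at 137 and 112 CPM in caffeine-treated and 80.4 and 83.3 CPM in untreated cells. These 6 kept their calls whichever library was left out, while the count of 14 became 6, and the 7 autophagy genes 3, when SW620 control replicate 1 or 2 was left out.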

How the data were processed

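Counts were deposited by the authors as raw reads per Ensembl gene, with a file for each library. Per the submitters' processing notes, reads were trimmed with Trim Galore, aligned with STAR 2.7.3a to hg38 and counted with featureCounts 2.0.5; the strand setting and the annotation release are not given in the sources used here. Per the labels, poly-A RNA was made into directional libraries with single-end reads of 75 bases, from RNA with an integrity number of at least 8. Each file also held 12 assignment totals, which were left out; reads ambiguous between genes made up 7.36% to 8.37% and reads of low mapping quality 13.3% to 17.5% of all reads in a file. Symbols were matched for 62625 identifiers, and coordinates, exon lengths and overlaps came from GENCODE 29 (GRCh38), where 19 of the 41 members share exon bases with another gene, 9 on the same strand.

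Tests used edgeR 4.0.16 in R 4.3.3 (filterByExpr, TMM, robust quasi-likelihood fit with a mean for each group, Benjamini-Hochberg adjustment over 17671 tested genes, calls at 0.05), fitted jointly to the 8 libraries without a replicate block. The SE is the log2 fold change divided by the root of the F statistic. The biological coefficient of variation was 10.5%. Libraries of 2 per group limit the precision, and a gene with 0 counts could be at up to 3 counts (95%, counting error only), or 0.129 to 0.19 CPM. The procedure was also run on counts simulated with the same coefficient of variation for every gene and no atypical library. That run does not bear on how calls depend on single libraries. Alternatives were DESeq2 size factors, no filter, limma-voom (limma 3.58.1), DESeq2's Wald test (1.42.0), the replicate number as a block, separate fits, a fit without mitochondrial genes and each library left out. The members and lists were chosen with earlier results of these data known. Full statistics were given for up to 12 called members per comparison by adjusted p (8 for the difference), for the MiT factors, and for up to 6 called genes of the other lists; any other gene was chosen for naming with its values known.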

Additional observations from a re-analysis of the deposited data

Results flagged for a closer look

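The caffeine response differed between the lines for 5 members and 6 other genes of the same systems, by the test of the difference itself (SW620 minus SW480, log2). Among the members the differences were 1.03 for GABARAPL1, 0.676 for CTSB, 0.864 for FNIP1, 0.603 for TFE3 and 0.623 for UVRAG. Among the other genes they were 1.94 for BNIP3L, 1.36 for VMP1, -1.23 for SESN2, 1.23 for ATP6V0A4, 1.05 for OPTN and -1.44 for ATP6V0E2.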

How the results depend on the processing

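Of the 49 called results given by the naming rule, 32 kept their call and direction under every alternative run (up to 15 each), among them the 12 members and 6 other genes with the smallest adjusted p in the untreated lines. Over all called members, 25 of 33 in the untreated lines, 1 of 5 in the difference, 0 of 5 in SW620 and 0 of 3 in SW480 did so. In SW480 the members called numbered 6 with the DESeq2 Wald test, 1 with the replicate block and 1 in a separate fit, against 3, and 0 to 6 with a library left out. In SW620 they numbered 10 with the DESeq2 Wald test, 8 with limma-voom and 15 in a separate fit, against 5, and 0 to 12 with a library left out. In the difference between the lines they numbered 3 with the replicate block, against 5, and 1 to 8 with a library left out. In the untreated lines 26 to 33 were called with a library left out. The labels do not say that the same replicate number pairs the samples. Within SW480 and SW620 the correlation of same-numbered deviations was 0.0924 and 0.00458, and between untreated SW480 and caffeine-treated SW620 it was -0.362. With 2 libraries per group such values cannot exclude a pairing. With the replicate block LAMP2 (adjusted p = 0.0505) and UVRAG (0.0731) in SW480, CTSA and LAMP1 (0.0589 each) in SW620 and TFE3 (0.0639) and UVRAG (0.0711) in the difference lost their calls by edgeR. Without the filter CTSA (0.0709) and LAMP1 (0.0663) in SW620 and UVRAG in SW480 (0.0581) and in the difference (0.0586) did so, and, in the untreated lines, RRAGA (0.0543) and BECN1 (0.0552, and 0.0583 with the DESeq2 Wald test). In the separate fit LAMP2 (0.0606) and UVRAG (0.140) in SW480 did so. No called member changed sign. Of the uncalled members 12 of 38 in SW480, 13 of 36 in SW620, 12 of 36 in the difference and 1 of 8 in the untreated lines did so under some alternative. With a library left out MITF in SW480 ranged from -0.269 to 0.00109, TFEB in SW620 from -0.325 to 0.202 and MITF in SW620 from -0.881 to 0.621, and with limma-voom MITF in SW620 was -0.0634. The cause was not tested. Over all genes, 636 calls in SW480 became 1073 without the filter and 50 to 1367 with a library left out, 2537 in SW620 became 4561 in a separate fit and 787 to 3225 with a library left out, and 1185 in the difference became 421 to 2156 with a library left out. Of the other lysosome and autophagy genes 13 were called in SW480 with the DESeq2 Wald test, against 8. DESeq2 size factors moved the median of all genes by under 0.1. Depth limits CTSL and MITF in SW620, which had 7 to 20 and 5 to 17 counts per library.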

Other observations

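The proton pump proteolipid gene ATP6V0C, which is no member, had 2 to 8 counts per library and was not tested. Its annotated exons of 1498 bases share 862 bases with another gene on the same strand. TFEC, the remaining MiT factor, had 1 count in all 8 libraries.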
